A study of Nothobranchius furzeri with 9 samples.

Results

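The genes of synaptic vesicle release and of SNARE-driven membrane fusion were followed in muscle of Nothobranchius furzeri (Nfu), the turquoise killifish, at 3 ages. They were taken by name, as every entry whose gene name starts with SYT and a digit, SYN1 to SYN3, SYP, SV2, SNAP2, VAMP, STX, CPLX, RIMS, UNC13 or NRXN. This gave 161 of the 39396 entries of the expression table, under 79 different names. Each entry was kept apart and is given with its number in the annotation used by the authors. Of the 79 names 42 belong to more than 1 entry, 124 entries in all. Reads that matched several places had been left out by the authors, so the values of close gene copies are uncertain.

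The fish were males of the strain MZM-04/10. The libraries came from young fish of 5 weeks, adult fish of 20 weeks and old fish of 35 weeks, with 3 fish per age and 1 library per fish. RNA was taken from whole muscle tissue and not from sorted fibres, so nerve, glia, blood and connective tissue can contribute to each value. In such bulk samples fewer cells of a type and less RNA per cell cannot be told apart. Values are given as normalized counts, for which the reads of a gene had been divided by the size factor of the library and rounded.

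SNARE proteins sit on vesicles and on target membranes and zip into a bundle that pulls both membranes together. At nerve endings the vesicle SNARE synaptobrevin (VAMP) pairs with syntaxin and SNAP-25 on the plasma membrane, Munc18 (STXBP) and Munc13 (UNC13) proteins prepare the bundle, complexins hold it ready, and synaptotagmins release it when calcium enters. Other syntaxins and VAMPs do the same work inside every cell, between endoplasmic reticulum, Golgi, endosomes and lysosomes. In muscle the neuronal proteins are known from the motor nerve terminal, whereas syntaxin 4 and its partners bring glucose transporters to the fibre surface.

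The estimated number of reads on genes ranged between 11.72 and 12.92 M for young, 11.76 and 14.24 M for adult and 7.96 and 12.71 M for old libraries. 1 read was worth 0.8 to 1.44 normalized counts, so that values under 10 rest on few reads. The 29 entries of a list of skeletal muscle markers summed to between 2689316 and 4853341 normalized counts per library. Calls were made with limma on log2(normalized count + 1), a scale that understates changes of low genes, and needed both a 2-fold difference and an adjusted p (Benjamini-Hochberg) no higher than 0.05. Entries averaging under 5 across all 9 libraries were not tested, which left 17454.

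Of the 161 members 88 reached that mean and 73 did not. Among the 88, 33 were called in adult versus young muscle, against 22.1% of all tested entries. Of these 23 were lower and 10 higher (26.1% and 11.4% of the 88), where 11.4% and 10.7% of all tested entries were called in these directions. In old versus young muscle 32 were called (17.7% of all tested entries), 22 lower and 10 higher (25% and 11.4% of the 88, against 9.84% and 7.91% of all tested entries). With equal library totals the split in old fish was 27 lower and 4 higher, but there the median of all entries was itself at -0.298 log2. Between old and adult muscle 1 member was called, which was lower, where 2.09% of all tested entries were called, 1.26% lower and 0.825% higher. Groups that did not overlap were found for 34 lower and 18 higher members in adult versus young muscle (26.3% and 23.9% of all tested entries), for 32 and 16 in old versus young (22.4% and 19.6%) and for 6 and 6 in old versus adult muscle (10.3% and 10.7%). The median log2 fold change of the tested members was -0.40 for adult and -0.60 for old versus young fish, next to -0.00 and -0.03 over all tested entries. Of the 23 members lower in adults, 11 had means under 5 in both later ages and passed the filter through their young values, so that these shares and medians describe the tested members alone. Both comparisons with young fish use the same 3 young libraries.

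Differences between roles were not tested, and the counts are given side by side. Of 38 entries of 16 genes of the neuronal fusion machinery 25 were tested. Of these 25 entries 16 were called lower in adults and 15 in old fish, with medians of -2.57 and -2.54 log2. Over all tested entries 11.4% and 9.84% were called lower. VAMP1, SYN1 and CPLX2, among others, passed the filter through their young values. The medians and counts thus describe the tested entries alone. Of 10 tested entries of broadly used SNAREs 1 was called lower and 1 higher in adults and 1 higher in old fish, close to the shares over all tested entries. Calls for higher levels came from complexin 3, Munc13 proteins, STXBP4, SYN3, SYT3, SYT5A, RIMS1, RIMS2A and STX6. In 19 members the call was lower both in adult and in old muscle, and in 7 it was higher in both. No call was made in any comparison for 48 members. The shares of all tested entries with these joint patterns are not given, and both comparisons with young fish use the same young libraries. These joint counts therefore do not show whether the members differ from other entries.

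**Figure D1:**
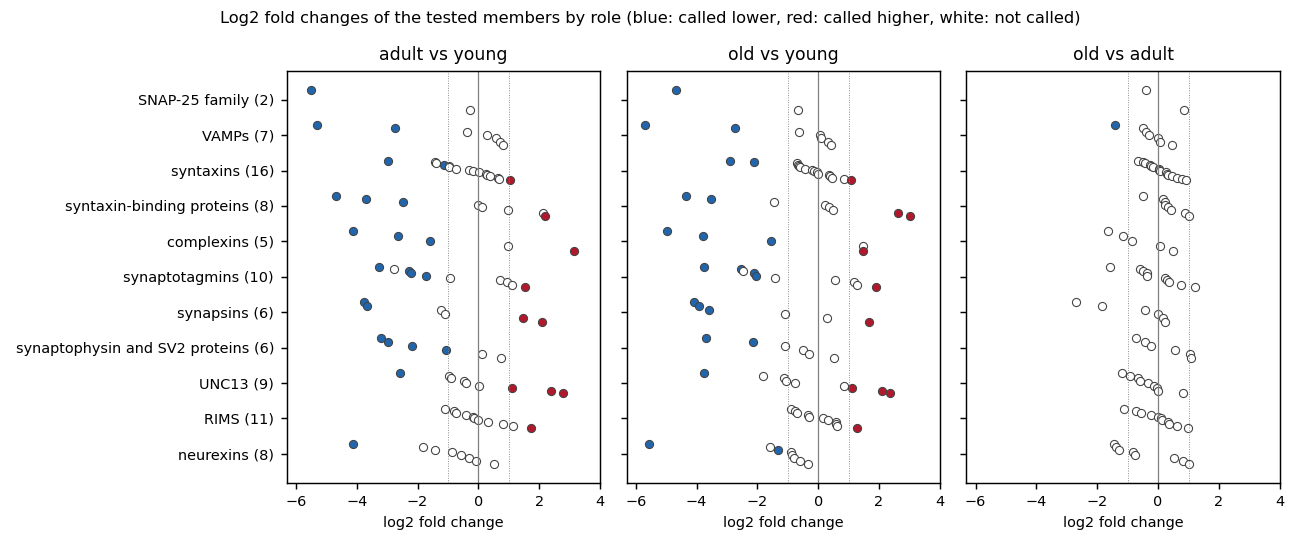
Log2 fold change (horizontal axis) of each of the 88 tested members, grouped by role with the number tested in brackets, for adult versus young, old versus young and old versus adult muscle. Blue and red points were called lower and higher, white points were not called, and dotted lines mark 1 log2; the calls in the first 2 panels are nearly absent from the third, which has 1.

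Of the plasma membrane SNAREs of neurons, SNAP25 had one of the largest changes. SNAP25, entry 685688, which supplies part of the fusion bundle at nerve endings, had 196, 658 and 332 normalized counts in young fish, 6, 5 and 10 in adult fish and 19, 11 and 10 in old fish. The highest later value was thus far below the lowest young one. The change was -5.50 log2 in adults (standard error, SE, 0.43, adjusted p = 2.74e-05) and -4.67 log2 in old fish (SE 0.43, adjusted p = 9.22e-05, both limma). The other SNAP25 entries stayed under the mean for a test, with 6, 14 and 13 (entry 689783) and 2, 3 and 0 (entry 826732) in young libraries. STX1A, entry 835910, a neuronal syntaxin, had 32, 40 and 27 in young fish, 18, 15 and 25 in adult fish and 12, 28 and 39 in old fish and was not called.

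Of the vesicle SNAREs, VAMP1 (entry 183586) is the synaptobrevin that serves the neuromuscular junction in the mouse. It had 53, 195 and 106 normalized counts in young libraries, against 1, 2 and 2 in adult and 1, 0 and 3 in old ones. All 6 later libraries were therefore at 3 or less. The changes were -5.31 log2 in adults (SE 0.60, adjusted p = 0.000137) and -5.70 log2 in old fish (SE 0.60, adjusted p = 0.000177, limma). VAMP2 is named for 3 entries that behaved differently. Entry 187361 fell, with 13, 44 and 38 in young fish, 1, 4 and 7 in adult fish and 9, 3 and 1 in old fish (-2.75 log2 in both comparisons, adjusted p = 0.0125 and 0.0158, limma); both calls were lost without young replicate 2 or 3 (-3.36 to -2.20 log2 over the fits without 1 library, with -3.36 in old fish without old replicate 1). Entry 115796 was not called, with 126, 112 and 124 in young fish, 163, 130 and 145 in adult fish and 149, 191 and 124 in old fish, and entry 238496 was at 0 throughout.

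Syntaxin-binding and Munc13 proteins guide or limit SNARE assembly. STXBP6, entry 797455 (amisyn, which binds into SNARE bundles), fell in adults, with 6, 5 and 1 in adult against 18, 43 and 16 in young libraries (-2.47 log2). Its values of 7, 10 and 7 in old libraries were below the young ones without a call. UNC13A (entry 813866), the priming factor of most central synapses in the mouse, had 6, 19 and 17 in young fish, 2, 0 and 3 in adult fish and 0, 0 and 0 in old fish, at least 4.67-fold lower in old fish when each old library is set to a floor of 3. Its adult call (-2.57 log2, adjusted p = 0.0209, limma) was lost without young replicate 2 or 3 or adult replicate 2 (-3.05 to -1.97 log2 over the fits without 1 library). The other UNC13A entry, 565208, was not called, with 59, 104 and 84 in young fish, 120, 71 and 62 in adult fish and 168, 181 and 100 in old fish.

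Complexins clamp the assembled SNARE bundle until calcium enters. CPLX1, entry 619714, had 17, 72 and 46 normalized counts in young fish, 0, 1 and 5 in adult fish and 0, 1 and 0 in old fish, a change of -4.11 log2 in adults (SE 0.76, adjusted p = 0.00207) and -4.97 log2 in old fish (SE 0.76, adjusted p = 0.00112, limma). CPLX1, entry 227621, changed less, with 12, 33 and 27 in young fish, 9, 4 and 8 in adult fish and 8, 6 and 7 in old fish (-1.59 and -1.54 log2). CPLX2, entry 738718, had 18, 32 and 16 in young fish, 1, 1 and 10 in adult fish and 0, 0 and 3 in old fish (-2.64 and -3.79 log2). In all 3 entries the young values lay above all later ones. The calls of entry 227621 were lost without young replicate 2 or 3 in both comparisons, and also without adult replicate 2 in adults and old replicate 2 in old fish (adjusted p up to 0.115). The adult change of entry 619714 was -3.51 log2 without adult replicate 1 and -4.80 log2 without adult replicate 3, and those of CPLX2 were -3.46 log2 in adults without adult replicate 3 and -4.46 log2 in old fish without old replicate 3. The call of CPLX2 in adults was lost without any 1 young library, adult replicate 1 or adult replicate 2 (adjusted p up to 0.0997, limma).

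Synaptotagmins bind calcium or vesicle membranes, and 10 of 26 entries could be tested. SYT2, entry 491994, the main calcium sensor of the mouse neuromuscular junction, had 86, 216 and 179 normalized counts in young fish, 12, 10 and 25 in adult fish and 9, 46 and 36 in old fish. The lowest young value was above each later one, and the changes were -3.28 log2 in adults (SE 0.56, adjusted p = 0.00129) and -2.54 log2 in old fish (SE 0.56, adjusted p = 0.00727, limma). SYT2A, entry 914104, also fell, with 21, 67 and 35 in young fish, 6, 5 and 12 in adult fish and 2, 6 and 0 in old fish (-2.21 and -3.77 log2). SYT11A, entry 903538, which belongs to the synaptotagmins that do not bind calcium, had 57, 110 and 83 in young fish, 20, 24 and 28 in adult fish and 10, 44 and 13 in old fish (-1.72 and -2.10 log2). SYT12, entry 602265, had 12, 43 and 34 in young fish, 5, 5 and 4 in adult fish and 2, 13 and 6 in old fish (-2.27 and -2.03 log2), where old and young values overlapped. SYT1, the calcium sensor of most forebrain synapses in the mouse, was not called with entry 667336, whose adult values of 0, 2 and 12 and old values of 17, 0 and 3 scattered widely next to 12, 52 and 17 in young libraries. In old fish the change of SYT2 was -1.85 log2 without old replicate 1, that of SYT11A -2.71 log2 without old replicate 2 and that of SYT2A -4.45 and -3.04 log2 without old replicate 2 and 3. Without young replicate 2 the adult calls of SYT2A, SYT11A (-1.96 to -1.49 log2 over the fits without 1 library) and SYT12 and the old call of SYT12 were lost. That of SYT2A was lost also without young replicate 3, adult replicate 1 or adult replicate 2 (-2.60 to -1.78 log2 over the fits without 1 library), and those of SYT12 without young replicate 3 in both and without old replicate 1 or 3 in old fish (-2.80 to -1.46 log2).

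**Figure D2:**
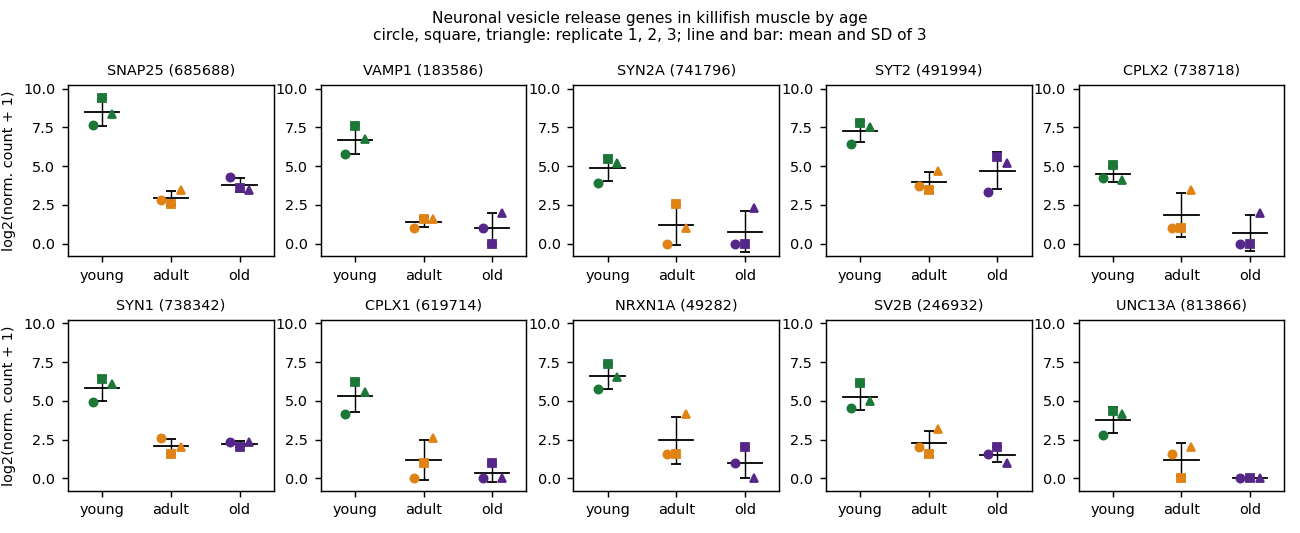
Log2(normalized count + 1) of 10 neuronal release genes (vertical axis) in the 3 young, 3 adult and 3 old libraries; each panel is 1 entry, symbols are single fish, and line and bar are the mean and SD of 3. The young symbols stand above all adult and old ones in each panel, and the young square (replicate 2) is the highest of the young symbols in each. All 10 entries were called lower in both later ages and have the smallest p of their name, so this separation follows in part from the choice. UNC13A entry 565208, VAMP2 entry 115796, STX1A entry 835910 and SYT1 entry 667336 were not called and are not among these panels.

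Of the vesicle proteins outside the fusion bundle, some synapsin and SV2 entries fell as well. SYN1, entry 738342, a synapsin that ties vesicles to actin in the reserve pool, had 29, 85 and 67 normalized counts in young fish, 5, 2 and 3 in adult fish and 4, 3 and 4 in old fish (-3.75 and -3.59 log2, SE 0.47, adjusted p = 0.000209 and 0.00049, limma). SYN2A, entry 741796, had 14, 43 and 35 in young fish, 0, 5 and 1 in adult fish and 0, 0 and 4 in old fish (-3.65 and -4.07 log2; -3.05 and -4.35 log2 in adults without adult replicate 1 and 2, and -4.85 log2 in old fish without old replicate 3). The tested synapsin entries did not all follow, since SYN3 has 5 entries with different patterns. SYN3 entry 500453 was called lower in old than in young fish, with 6, 33 and 28 in young fish, 1, 8 and 29 in adult fish and 0, 1 and 0 in old fish (-3.92 log2; -4.64 log2 without young replicate 1). The adult values spanned both other ages, and the step between old and adult fish was not called (-2.69 log2, adjusted p = 0.134, limma). SYN3 entry 712816 was called higher in adults, with 4, 10 and 7 in young fish, 21, 32 and 47 in adult fish and 5, 9 and 12 in old fish. SYN3 entry 305642 was called higher in both later ages on small values, with 2, 3 and 1 in young fish, 8, 10 and 4 in adult fish and 7, 8 and 10 in old fish; the adult call was lost without any 1 of 7 libraries (all but adult replicate 3 and old replicate 3) and the old call without young replicate 1 or 3 or any old replicate (1.19 to 1.92 log2).

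SV2 proteins are transporter-like proteins of synaptic vesicles. SV2B, entry 246932, had 22, 71 and 31 normalized counts in young fish, 3, 2 and 8 in adult fish and 2, 3 and 1 in old fish (-2.98 and -3.70 log2, adjusted p = 0.00253 and 0.00115, limma). SV2C, entry 14407, had 10, 28 and 21 in young fish, 2, 2 and 0 in adult fish and 4, 1 and 7 in old fish (-3.20 and -2.15 log2). The old call of SV2C was lost without young replicate 2 or 3 or old replicate 1 or 2 (-2.60 to -1.60 log2). Both SV2A entries were called lower in adults only. Entry 335148 had 79, 107 and 80 in young fish, 38, 43 and 43 in adult fish and 51, 75 and 62 in old fish, and its adult call (-1.07 log2) was lost without young replicate 2 (-0.93 log2). Entry 235735 had 10, 23 and 28 in young fish, 6, 2 and 3 in adult fish and 7, 13 and 6 in old fish (-2.17 log2 in adults). For neither entry was the step between old and adult fish called. The only tested entry of the synaptophysin family was SYPL2B (entry 127921, named after mitsugumin-29, a protein of the triad junction of muscle fibres), which had 78, 53 and 85 in young fish, 62, 76 and 96 in adult fish and 68, 65 and 42 in old fish and was not called. SYPB, entry 296791, a synaptophysin, had 2, 13 and 1 in young libraries and at most 1 in any later one, too little for a test.

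Neurexins and RIMS proteins organise the release site. NRXN1A, entry 49282, an adhesion receptor of the presynaptic membrane, had 54, 166 and 92 normalized counts in young fish, 2, 2 and 17 in adult fish and 1, 3 and 0 in old fish (-4.12 and -5.57 log2, SE 0.75, adjusted p = 0.00183 and 0.000596, limma). Without adult replicate 3, at 17, the adult change was -4.98 log2. It was the only neurexin called lower in both later ages. NRXN2, entry 798882, was called lower in old fish, with 6, 9 and 12 against 14, 36 and 24 in young libraries; the call was lost without young replicate 2 or 3 or old replicate 1 (adjusted p up to 0.126, limma). The other 6 tested neurexin entries were not called. Of their 29 entries 21 were too low for a test. Of the 11 tested RIMS scaffold entries 1 was called in each comparison with young fish (all tested entries: 22.1% in adults and 17.7% in old fish). RIMS2A, entry 730524, was called higher in adults, with 15, 18 and 22 in young fish, 42, 55 and 103 in adult fish and 32, 27 and 25 in old fish. RIMS1, entry 101771, had 7, 13 and 8 in young fish, 29, 16 and 20 in adult fish and 41, 19 and 16 in old fish and was called higher in old fish (1.27 log2), a call lost without young replicate 1 or 3, adult replicate 3 or old replicate 1 (0.88 to 1.53 log2). Of the other RIMS1 entries, 487307 had 76, 136 and 138 in young fish, 130, 58 and 136 in adult fish and 145, 68 and 32 in old fish, and 203049 had 38, 83 and 102 in young fish, 84, 35 and 76 in adult fish and 93, 19 and 27 in old fish. Entry 62355 had 5, 15 and 22 in young fish, 10, 10 and 7 in adult fish and 17, 8 and 6 in old fish. In these 3 entries the values of all ages overlapped.

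SNAREs of general membrane traffic were called about as often as all tested entries. Of 10 tested entries of STX2, STX4, STX5, STX6, STX8, STX16, STX18, VAMP7 and VAMP8, the adult versus young comparison called 1 lower and 1 higher, and old versus young 1 higher (all tested entries: 11.4% lower and 10.7% higher in adults, 7.91% higher in old fish). Together with 1 low STX2 entry they summed to 595, 593 and 573 normalized counts in young fish, 499, 586 and 520 in adult fish and 568, 454 and 521 in old fish. STX5A, entry 231439, the syntaxin between endoplasmic reticulum and Golgi, had 170, 195 and 191 in young fish, 93, 76 and 86 in adult fish and 102, 118 and 133 in old fish. It fell by 1.12 log2 in adults (SE 0.17, adjusted p = 0.000782, limma). In old fish it remained below the young values at -0.66 log2 (adjusted p = 0.017, limma), under the 2-fold limit. STX6, entry 495943, a syntaxin of the trans-Golgi network, rose, with 34, 22 and 25 in young fish, 61, 46 and 62 in adult fish and 71, 47 and 56 in old fish (1.04 and 1.08 log2). The adult call was lost without young replicate 2, adult replicate 1 or adult replicate 3 (0.91 log2 at the least) and the old call without young replicate 2 or old replicate 1 (0.92 log2 at the least).

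Syntaxin 4 is the plasma membrane SNARE for glucose transporter vesicles in muscle and fat of mammals. STX4, entry 915240, had 112, 120 and 98 normalized counts in young fish, 66, 46 and 57 in adult fish and 59, 73 and 71 in old fish. Its groups did not overlap with the young one (-0.96 and -0.69 log2, adjusted p = 0.00412 and 0.026, limma), but the change was smaller than 2-fold. STXBP3 (Munc18c, the partner of syntaxin 4), entry 817123, went the other way at 0.98 log2 in adults (adjusted p = 0.00577, limma), with 259, 222 and 291 in adult against 118, 145 and 126 in young libraries, also just under the limit; old libraries had 234, 200 and 131. STX16, entry 94634, a Golgi syntaxin, had 49, 46 and 42 in young fish, 16, 26 and 28 in adult fish and 38, 57 and 39 in old fish. Its adult values lay below all others without a call. VAMP8, entry 597360, an endosomal SNARE, was the only member called between old and adult fish. It had 15, 15 and 13 in old against 29, 45 and 50 in adult libraries and 30, 23 and 17 in young ones (-1.43 log2, SE 0.30, adjusted p = 0.0322, limma). This call was lost without young replicate 2, adult replicate 2, adult replicate 3 or any old replicate (-1.66 to -1.28 log2, adjusted p up to 0.133). Its other entry, 259268, had 16, 19 and 16 in old and 19, 34 and 14 in adult libraries.

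STX2, entry 199379, an epithelial plasma membrane syntaxin, had 6, 12 and 13 in young fish, 8, 1 and 3 in adult fish and 2, 14 and 7 in old fish and was not called.

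The remaining traffic SNAREs were not called. VAMP7, entry 439669, of lysosomes, had 129, 109 and 123 in young fish, 145, 229 and 172 in adult fish and 206, 77 and 127 in old fish. STX18, entry 461807, of the endoplasmic reticulum, stayed between 28 and 63, and STX8, entry 825605, of endosomes, between 5 and 20 in all libraries. STXBP5 (tomosyn, which holds syntaxin back from fusion), entry 313101, had a narrow range, with 130, 150 and 134 in young fish, 137, 146 and 129 in adult fish and 148, 161 and 178 in old fish. SNAP29, entry 736945, a SNAP-25 relative of intracellular membranes, had 175, 216 and 198 in young fish, 139, 209 and 144 in adult fish and 129, 110 and 127 in old fish. The 48 members called in no comparison summed to 2240, 2689 and 2509 normalized counts in young fish, 2464, 2388 and 2571 in adult fish and 2662, 2604 and 2191 in old fish. The 19 members lower in both later ages summed to 771, 2345 and 1503 in young libraries, against 109, 98 and 173 in adult and 88, 182 and 134 in old ones. Both sets were chosen by their calls in these libraries, so this difference between them follows from the choice.

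**Figure D3:**
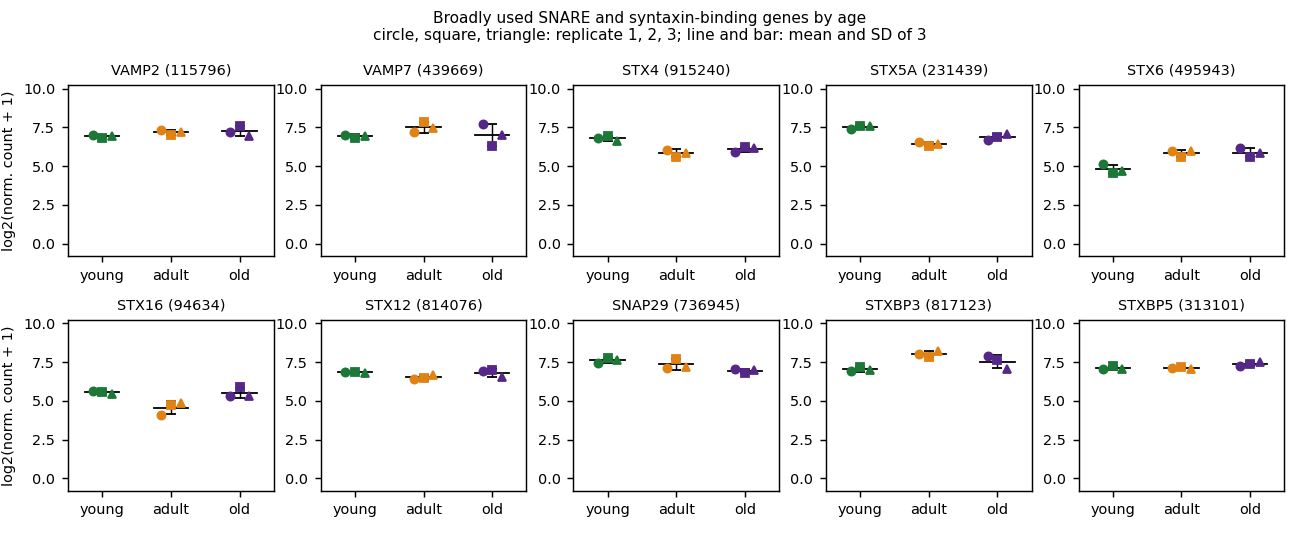
Log2(normalized count + 1) of 10 broadly used SNARE and syntaxin-binding genes by age, on the same vertical scale as the neuronal genes. Symbols are single fish, line and bar the mean and SD of 3. The VAMP2 panel is the uncalled entry 115796, although the text counts VAMP2 among the neuronal genes. The falling VAMP2 entry 187361 is neither among these panels nor among those of the neuronal genes. On this scale the steps between ages are smaller than those in the panels of the neuronal genes. Those panels hold only entries called lower in both later ages, so this difference follows in part from the choice. STX5A was called lower in adults and STX6 higher in adult and old fish. STX4 (-0.96 log2), STX16 (-0.97 log2) and STXBP3 (0.98 log2) changed in adults by just under 2-fold without a call.

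Of 9 tested entries of the Munc13 family 3 were called higher in adults and in old fish, against 10.7% and 7.91% of all tested entries. UNC13B, entry 454637 (Munc13-2), had 9, 18 and 33 normalized counts in young fish, 105, 150 and 127 in adult fish and 127, 42 and 92 in old fish (2.77 and 2.10 log2, SE 0.45, adjusted p = 0.00104 and 0.00654, limma). The lowest later value was above the highest young one. The other UNC13B entries with enough reads were not called, and 256339 had 22, 36 and 27 in young fish, 10, 19 and 13 in adult fish and 5, 16 and 22 in old fish. UNC13D (Munc13-4, needed for granule secretion by cytotoxic lymphocytes in human) rose with both entries. Entry 779670 had 6, 9 and 4 in young fish, 33, 38 and 37 in adult fish and 57, 20 and 39 in old fish (2.39 and 2.37 log2, adjusted p = 0.00106 and 0.00165, limma). Entry 72945 had 11, 12 and 17 in young fish, 41, 21 and 30 in adult fish and 25, 38 and 27 in old fish (1.12 and 1.11 log2). The adult call of entry 72945 was lost without young replicate 1 or 2, adult replicate 1 or adult replicate 3, and the old call without young replicate 1 or 2 or old replicate 2 (0.89 to 1.35 log2). Of 6 tested leukocyte marker entries 3 were called higher in adults and 1 in old fish (all tested entries: 10.7% and 7.91%). The list of 7 summed to 248 to 373 in young, 452 to 1195 in adult and 389 to 453 in old libraries. PTPRC (CD45), entry 484953, had 82, 54 and 50 in young fish, 161, 214 and 120 in adult fish and 111, 104 and 101 in old fish; the part of such cells in the UNC13D values was not tested.

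CPLX3, entry 869719, a complexin known from ribbon synapses of the mouse retina, had the largest increase of all members. It reached 315, 388 and 222 normalized counts in adult libraries against 37, 28 and 35 in young ones (3.14 log2, SE 0.48, adjusted p = 0.000716, limma). In old libraries it had 250, 72 and 46, still above each young value, but the old call (1.48 log2, adjusted p = 0.0406) was lost without any 1 young library, adult replicate 1, adult replicate 3 or old replicate 1 (0.78 to 1.99 log2). The smaller CPLX3 entry, 373643, had 3, 4 and 3 in young fish, 6, 6 and 11 in adult fish and 3, 15 and 25 in old fish and was not called. Complexins 1 and 2 and complexin 3 were thus called in opposite directions.

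STXBP4 (Synip), which binds syntaxin 4 in mouse fat cells, had increases that rest in part on a 0 in young replicate 2. Entry 661687 had 13, 0 and 11 normalized counts in young fish, 33, 15 and 25 in adult fish and 34, 33 and 75 in old fish. Only the old call was made (3.02 log2, SE 0.83, adjusted p = 0.0199, limma), and it was lost without old replicate 3 (2.64 log2, adjusted p = 0.0653, limma). Over the fits without 1 library the change ranged from 1.79 log2 without young replicate 2 to 3.70 log2 without young replicate 1. Entry 320391 had 3, 0 and 4 in young fish, 16, 9 and 10 in adult fish and 13, 9 and 32 in old fish and was called in both (2.18 and 2.62 log2). Its adult call was lost without young replicate 2, adult replicate 1 or adult replicate 3 (1.46 to 2.62 log2), and its old change was 1.90 log2 without young replicate 2. Young replicate 2 was at 0 for both entries, which the other young libraries were not.

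Of the synaptotagmins, SYT3 (entry 945184) rose in adults, with 158, 94 and 197 normalized counts against 52, 52 and 44 in young libraries (1.52 log2, adjusted p = 0.0145, limma). The call was lost without young replicate 3 or adult replicate 3 (1.29 to 1.82 log2). Old libraries had 172, 157 and 52, which overlapped with the young ones. SYT5A, entry 240499, was called higher in old fish, with 1, 7 and 6 in young fish, 9, 5 and 7 in adult fish and 28, 8 and 22 in old fish (1.91 log2); this call was lost in 5 of 9 fits without 1 library, namely young replicate 1 or 3, adult replicate 3 or old replicate 1 or 3 (1.28 to 2.42 log2).

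**Figure D4:**
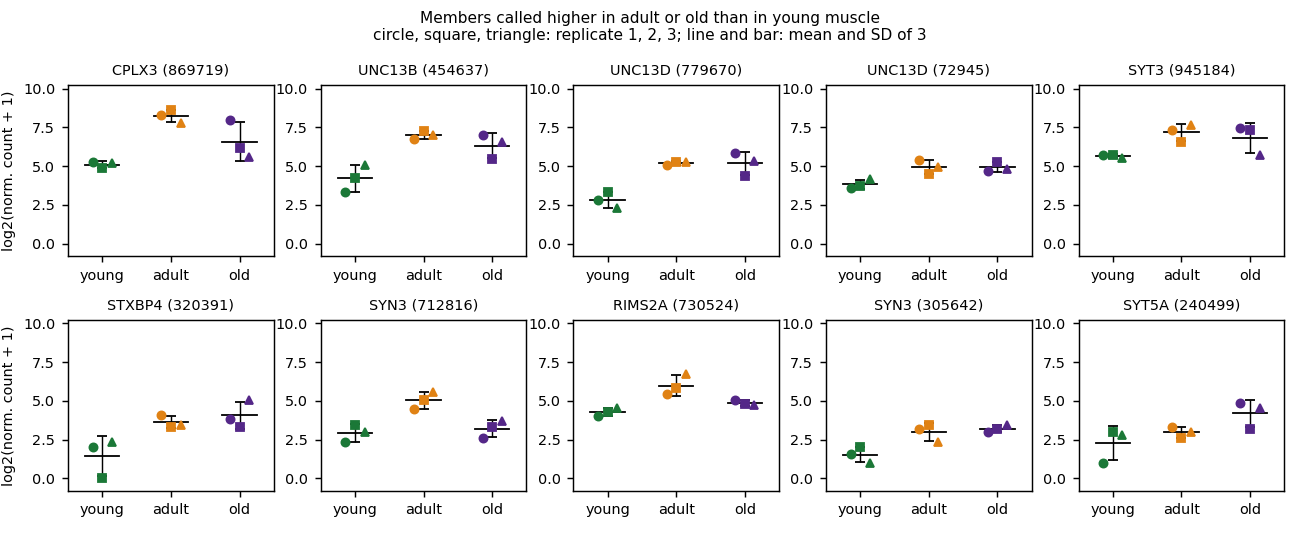
Log2(normalized count + 1) of 10 entries called higher in adult or old than in young muscle, by age; symbols are single fish, line and bar the mean and SD of 3. Adult values of CPLX3 and UNC13B are clear of the young ones, while old values of CPLX3 and SYT3 spread widely.

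The young libraries were not alike in the falling genes. Of the 23 members called lower in adults, 22 had their highest young value in replicate 2 (95.7%), against 47.2% of all tested entries called lower in adults and 33.6% of all tested entries. In 20 of the 23 (87%) the order was replicate 2, then 3, then 1, where 31.1% of all entries called lower and 16.7% of all tested entries had this order. The median ratio of replicate 2 to replicate 1 was 1.52 log2 in these 23 members, 0.17 log2 in all entries called lower and 0.00 log2 over all tested entries. The 13 tested neuron and axon markers had a median of 1.56 log2 for the same ratio. Without young replicate 2 there were 15 lower calls in adults and 16 in old fish, and without young replicate 3 there were 19 and 16. Over all tested entries the lower calls were 1525 and 1167 without replicate 2, and 1572 and 1153 without replicate 3, against 1987 and 1717 with all libraries.

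Markers of nerve moved with the falling members. Of 13 tested entries of neuron and axon markers 11 were called lower in adults and 11 in old fish, against 11.4% and 9.84% of all tested entries. The 19 entries of the list summed to 864, 2699 and 2075 normalized counts in young fish, 125, 119 and 103 in adult fish and 102, 162 and 137 in old fish. NEFMA, entry 199420, a neurofilament of large axons, had 294, 1039 and 768 in young fish, 0, 7 and 7 in adult fish and 2, 1 and 4 in old fish. The young replicates thus ranked as in the release genes. The 10 entries of cholinergic motor nerve markers summed to 55, 114 and 72 in young fish, 3, 4 and 7 in adult fish and 2, 3 and 7 in old fish. CHAT, entry 115149, which makes acetylcholine, had 18, 50 and 21 in young libraries and 0 in all later ones, at least 9.89-fold lower against a floor of 3 per library. CHAT entry 604128, too low for a test, had 10, 9 and 7 in young fish, 2, 2 and 2 in adult fish and 2, 0 and 0 in old fish. ISL1 and MNX1, transcription factors of motor neuron cell bodies, had at most 8 in any library and were too low for a test. ISL1 had 2, 8 and 8 in young fish, 0, 0 and 1 in adult fish and 0, 0 and 0 in old fish. MNX1 entry 2201 had 1, 3 and 1 in young fish, 0, 0 and 1 in adult fish and 0, 0 and 0 in old fish, and entry 733540 was at 0 throughout. The 7 neuroendocrine marker entries included CHGA, entry 951649, with 19, 56 and 56 in young fish, 1, 1 and 2 in adult fish and 2, 0 and 0 in old fish. Of the 7 entries 5 were called lower in adults and 4 in old fish. NEFMA, CHAT and CHGA, among others, passed the filter through their young values. The counts of called markers thus describe the tested entries alone.

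Of 8 entries of central glia markers 3 could be tested and 2 were called lower in each comparison with young fish, GFAP and SLC1A2B (entry 578332), the old call of SLC1A2B being lost without young replicate 2 (-1.88 log2, adjusted p = 0.0617, limma). GFAP, entry 140286, a filament of glia, had 180, 898 and 570 normalized counts in young fish, 5, 0 and 1 in adult fish and 1, 3 and 0 in old fish. GFAP thus passed the filter through its young values, and the glia counts describe the tested entries alone. SLC1A2 (entry 138198), a glutamate transporter, had 12, 5 and 11 in young fish, 15, 26 and 8 in adult fish and 17, 8 and 16 in old fish and was not called. The 8 glia marker entries summed to 233, 1035 and 648 in young fish, 29, 28 and 20 in adult fish and 25, 28 and 36 in old fish, and the 7 entries other than GFAP to 53, 137 and 78, to 24, 28 and 19 and to 24, 25 and 36 at these ages. OLIG1, OLIG2, AQP4 and SLC1A3B, defining genes of central glia, were at 5 or less in every library. OLIG2 had 1, 5 and 1 in young fish, 1, 0 and 0 in adult fish and 0, 0 and 0 in old fish, and OLIG1 had 0, 2 and 1 in young fish and 0 in all later ones. AQP4 and SLC1A3B had at most 1 in any library. SLC17A6, entry 402217, the vesicular glutamate transporter of many central neurons, had 10, 48 and 29 in young fish, 0, 0 and 1 in adult fish and 0, 0 and 0 in old fish. Schwann cell and myelin markers took another course, with 2 of 14 tested entries called lower and 1 higher in each comparison with young fish. Over all tested entries 11.4% were called lower and 10.7% higher in adults, and 9.84% and 7.91% in old fish. The 28 entries had a sum of 8537 to 9777 in young, 16064 to 21205 in adult and 20719 to 24314 in old libraries. PRX, entry 85341 (periaxin, a protein of myelinating Schwann cells), carried this sum, with 5133, 3954 and 4606 in young fish, 16890, 12892 and 11699 in adult fish and 20189, 17616 and 15787 in old fish. The other 27 entries summed to 3404 to 5823 in young, 4315 to 4582 in adult and 4125 to 4932 in old libraries, which overlapped. PLP1B, entry 512118, a myelin gene, fell, with 38, 88 and 41 in young fish, 5, 2 and 5 in adult fish and 1, 6 and 3 in old fish. The part of nervous tissue content in the changes of the release genes was not tested.

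**Figure D5:**
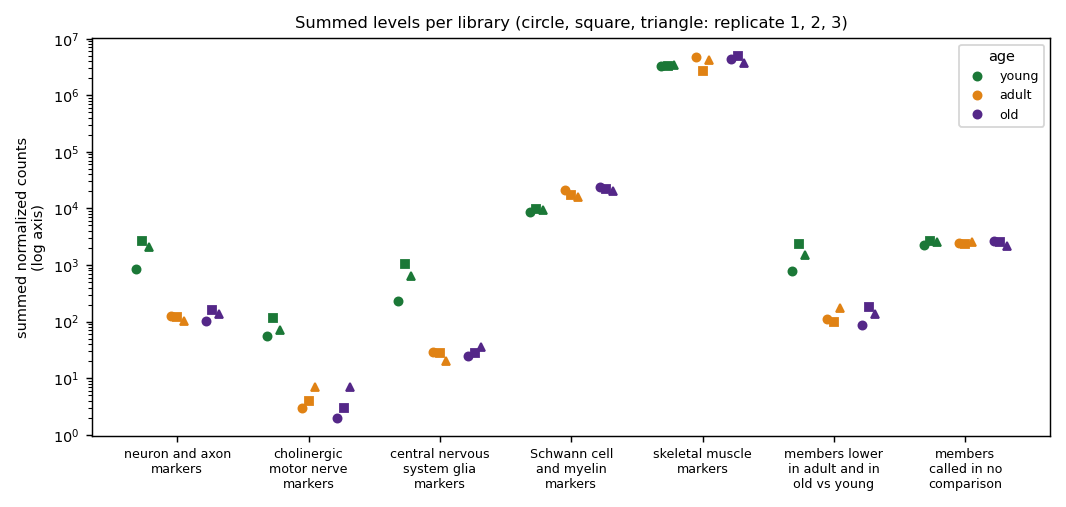
Summed normalized counts per library (vertical log axis) of 5 marker lists, of the 19 members lower in both later ages and of the 48 members called in no comparison; symbols are replicates 1 to 3 of young, adult and old fish. The 19 and the 48 members were chosen by their calls in these same libraries, which largely fixes how they differ between ages. Neuron, motor nerve and glia markers and the 19 falling members stand higher in the young libraries than in all later ones, whereas the 48 uncalled members and the muscle sums do not. Within the young libraries the square is highest and the circle lowest in each of these sums but that of muscle, by smaller steps for the 48 members and the Schwann cell list.

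Other genes of the same pathway were read from lists by function. Of 45 tested entries of the active zone and of vesicle priming, 12 were called lower and 5 higher in adults, and 14 and 6 in old fish, each versus young fish, with medians of -0.31 and -0.13 log2. Over all tested entries 11.4% were called lower and 10.7% higher in adults, and 9.84% and 7.91% in old fish. The higher calls in adults were near that share. BSN (bassoon), entry 855042, a scaffold of the active zone, had 38, 158 and 102 normalized counts in young fish, 6, 5 and 0 in adult fish and 2, 1 and 14 in old fish. RAB3AB, entry 31146, a vesicle GTPase, had 90, 59 and 73 in young fish, 11, 9 and 21 in adult fish and 18, 10 and 10 in old fish and was lowest of the young fish in replicate 2. RPH3A, entry 719451, its effector, had 20, 66 and 49 in young fish, 1, 2 and 0 in adult fish and 6, 3 and 0 in old fish. All 3 were called lower in both later ages. The entries called higher included CADPS2, entry 838165, and RAB3D, entry 861245, both in adult and in old fish. CADPS2 entry 838165 had 7, 9 and 3 in young fish, 23, 17 and 23 in adult fish and 13, 23 and 33 in old fish. RPH3A, among others of this list, passed the filter through its young values, so that the counts describe the tested entries alone.

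Of 15 tested entries for vesicle proteins and transmitter loading, 4 were called lower and 1 higher in adults, and 6 lower in old fish. Over all tested entries these shares were 11.4% and 10.7% in adults, and 9.84% lower in old fish. SLC17A6, of this list, passed the filter through its young values. SNCGB, entry 23833, a synuclein of peripheral neurons, had 99, 244 and 240 normalized counts in young fish, 56, 27 and 28 in adult fish and 25, 58 and 22 in old fish. SNARE recycling and other SNAREs outside the name rule had 3 of 26 tested entries lower and 1 higher in adults, and 4 lower in old fish, near or under the shares over all tested entries (11.4% and 10.7% in adults, 9.84% lower in old fish) except for the lower calls in old fish, with medians of -0.11 and -0.10 log2. NSF, the ATPase that takes SNARE bundles apart, had 2 entries. Entry 707961 had 25, 88 and 67 in young fish, 22, 18 and 18 in adult fish and 8, 4 and 36 in old fish. It was called lower in old fish (-2.19 log2, adjusted p = 0.0274, limma), a call lost without young replicate 2 or 3 or old replicate 1 or 2 (-3.01 to -1.56 log2). The more abundant entry 417493 was not called (-0.81 log2 in adults and -0.38 log2 in old fish). It had 334, 372 and 336 in young fish, 191, 208 and 193 in adult fish and 293, 281 and 228 in old fish. Vesicle endocytosis, which every cell uses, had 6 of 37 tested entries lower in each comparison with young fish, and 1 and 3 higher. Its higher calls were under or near the shares of 10.7% and 7.91% over all tested entries. Its lower calls were somewhat above 11.4% and 9.84%. The higher calls included ITSN2, entry 337976, in old fish (1.21 log2). DNM3, entry 400101, a dynamin of neurons, had 36, 109 and 96 in young fish, 2, 4 and 5 in adult fish and 1, 5 and 1 in old fish. Like SLC17A6, DNM3 passed the filter through its young values. AP2A1, entry 824938, an adaptor of clathrin pits in all cells, had 253, 272 and 194 in young fish, 83, 95 and 90 in adult fish and 92, 116 and 101 in old fish. CLTCB, entry 88156, a clathrin heavy chain, had 335, 410 and 359 in young fish, 56, 29 and 39 in adult fish and 123, 180 and 134 in old fish and was called lower in both later ages than in young fish and higher in old than in adult fish (1.82 log2, adjusted p = 0.00433, limma). Of the adhesion partners of neurexins, 4 of 10 tested entries were lower in adults and 3 in old fish, among them NLGN2, entry 187203, with 23, 59 and 44 in young fish, 14, 2 and 4 in adult fish and 5, 19 and 9 in old fish; its old call was lost without young replicate 2 or 3, adult replicate 3 or old replicate 1 or 3 (-2.37 to -1.51 log2).

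The 73 members below the mean of 5 had at most 17 normalized counts in any library, and 6 were at 0 throughout. Among them were 6 more entries of STX1A, SYT1, SYT2, SYN2A, RIMS1 and RIMS1A, with at most 13 in any library. The 73 members summed to 147, 316 and 204 in young fish, 88, 89 and 116 in adult fish and 63, 70 and 92 in old fish. The highest mean fell on the young age in 40, on the adult age in 13 and on the old age in 11 of these members, and 9 were tied. Summing the entries of the same name, a step chosen after seeing the data, brought 65 names to the test. Of these 20 were called lower and 6 higher in adult than in young muscle, and 19 and 6 in old versus young. The shares over all summed names are not given, so these counts cannot be set against the whole series. NRXN2B, of which no single entry could be tested, then fell, with 18, 43 and 27 normalized counts in young fish, 2, 0 and 2 in adult fish and 1, 3 and 5 in old fish (-3.78 and -2.98 log2, adjusted p = 0.00101 and 0.00544, limma). Summed NRXN2B passed the filter through its young values, so the call rests in part on that choice. Other calls ended by summing. VAMP2 (-0.02 and 0.04 log2), UNC13A (-0.17 and 0.63 log2), SYN3 (0.35 and -1.01 log2), NRXN2 (-0.84 and -0.93 log2), RIMS1 (-0.12 and -0.58 log2) and RIMS2A (-0.10 and -0.17 log2) each had a called entry. With their entries summed, these names were called in neither comparison with young fish. Summed UNC13B was called higher in adults (1.32 log2) but no longer in old fish (0.78 log2).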

How the data were processed

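Total RNA of whole skeletal muscle from 9 fish was sequenced with a stranded protocol. According to the submitters' processing notes the authors trimmed reads with Trimmomatic 0.33, aligned them with STAR 2.4.2a and counted them with featureCounts 1.4.5-p1; reads on several genes or places were left out. The deposited values are a signal, namely reads per gene divided by 1 size factor per library and rounded, so tests for raw counts were not run. The spacing between low values gave estimated size factors of 0.6925 to 1.2505. No 2 libraries were identical and 0 columns were left out.

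Values were analysed as log2(value + 1) in R 4.3.3 (limma 3.58.1), fitting 1 mean per age, all 9 libraries in 1 fit, eBayes with trend and Benjamini-Hochberg adjustment over 17454 entries. The exact permutation test of 3 against 3 fish cannot give a two-sided p under 0.1. The script was tested on simulated data. Tables were made with Python 3.11.15.

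The members, gene lists and tests were chosen with earlier results of these data known. Lists were matched by symbol, with an A or B suffix allowed. Members named in the text are up to 4 called entries with the smallest p per role, direction and comparison, entries of 16 neuronal and 12 broadly used gene names, and up to 3 called entries per list; ISL1, MNX1, CPLX3 entry 373643 and further uncalled or low entries were added after their values were seen. Alternatives covered scaling, filter, added constant, test, replicate block and omission of each library. Of the 79 member names 49 match a RefSeq symbol (assembly NfurGRZ-RIMD1). Some named entries are not reported here, though the counts and sums include them.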

Additional observations from a re-analysis of the deposited data

How the results depend on the processing

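The number of members called was within 1.5 times of 33 (adult versus young) and 32 (old versus young) under recomputed size factors, equal library totals, quantile normalization, no filter, other added constants, the 2 ages alone, no fold-change limit and, chosen after seeing the data, summed names. It was smaller with a mean of at least 50, where 27 members were tested and 8 and 7 called, and with the treat test of limma, which asks for a change beyond 2-fold and called 11 and 9. Without 1 library it was between 22 and 35 in adults and between 22 and 33 in old fish. Of the 33 and 32 calls, 20 and 19 were made in each fit without 1 library, and 11 and 9 under every alternative in which the entry was tested. None of the called members changed sign in the fits that kept entries apart. With summed names some signs differed from that of a called entry. In old fish UNC13A was at 0.63 log2 (entry 813866 at -3.77 log2) and RIMS1 at -0.58 log2 (entry 101771 at 1.27 log2). In adults RIMS2A was at -0.10 log2 (entry 730524 at 1.72 log2).

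Between old and adult fish the 1 call became 0 without a filter, with a mean of at least 50, with the 2 ages alone, with treat and with summed names, and 2 with an added constant of 5. Without 1 library it ranged from 0 to 4 (4 without adult replicate 1). Deviations of same-numbered libraries correlated between -0.079 and 0.106 over 9 pairs. Those of differently numbered libraries correlated between -0.105 and 0.116 over 18 pairs. No pairing by number was seen, but these correlations cannot tell whether same-numbered fish were handled together. A replicate block gave 33, 30 and 1 calls, and the 1 call was then of another member than VAMP8. Old replicate 3 had the fewest reads (7.96 M), where 1 read equals 1.44 normalized counts, so that low values in it are coarse.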
